A study of Mus musculus with 6 samples.

Results

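The tubulin isotype genes, together with the stathmins and microtubule-associated proteins (MAPs) that work on the same polymer, were examined in cultured mouse neural stem cells (NSCs). Members were taken by mouse gene symbol, with no use of measured values. The rule took every gene named as an α-, β-, γ-, δ- or ε-tubulin, the stathmins *Stmn1* and *Stmn4*, the end-binding proteins *Mapre1*, *Mapre2* and *Mapre3*, and the lattice-binding MAPs *Map1a*, *Map1s*, *Map4*, *Map6* and *Map7*. It found 32 members among the 32493 genes counted, made up of 7 α-tubulin genes, 8 β-tubulin genes, 3 processed tubulin pseudogenes, 4 genes for γ-, δ- and ε-tubulin, 2 stathmins, 3 end-binding proteins and 5 lattice-binding MAPs.

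The study compared NSCs with and without miR-151, a microRNA encoded in an intron of *Ptk2*. The cells were taken from E14.5 embryos of C57BL/6J background and were expanded over 3 generations in culture with EGF and bFGF. The study names the dissected lateral ventricles as their source in its methods and the cortex in its list of materials. In the conditional knockout (cko) group the miR-151 alleles were flanked by loxP sites and Emx1-IRES-Cre was present. This driver is active in the dorsal telencephalon, so any cells of ventral origin would keep the alleles. Controls (ctrl) had the same floxed alleles and no Cre according to the study, while the sample labels call them wild type. Whether a library came from 1 embryo or from several is not given in the sources used here, so p-values measure the spread between these libraries, which may be technical. The loss of miR-151 itself was not analysed here.

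Microtubules are hollow polymers of α- and β-tubulin dimers, nucleated by γ-tubulin at centrosomes and along existing microtubules. The isotypes of each family are encoded by separate genes, are nearly alike in their folded core and differ mostly in their acidic C-terminal tails. In the brain, *Tubb3* marks neurons, *Tubb4a* is prominent in oligodendrocytes and mature neurons, and *Tubb5* is abundant in dividing progenitors. Stathmins bind free tubulin dimers, end-binding proteins ride on growing plus ends, and lattice-binding MAPs coat the polymer.

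The coding ends of 6 β isotypes are shown because *Tubb4a* and *Tubb5*, which moved in opposite directions, differ there. Each line holds the last 30 bases of the coding sequence, 5′ to 3′ on the coding strand, with the stop codon in capitals. The positions are those of GENCODE M21 on GRCm38.
*Tubb5*, chr17:35834982-35835011, minus strand: ttcggagaggaggcagaagaggaggccTAA
*Tubb4a*, chr17:57080690-57080719, minus strand: gaagaggaggctgaagaggaggtggctTAA
*Tubb4b*, chr2:25222308-25222337, minus strand: gaggaggaggctgaggaggaggtggctTAG
*Tubb2a*, chr13:34074468-34074497, minus strand: gaggaggaggagggtgaagatgaggctTGA
*Tubb2b*, chr13:34127471-34127500, minus strand: gaggaggaagagggcgaggatgaggctTGA
*Tubb3*, chr8:123421653-123421682, plus strand: gaggaatcggaagcccaggggcccaagTGA
Position by position, *Tubb2a* differed from *Tubb5* at 10 of these 30 bases, *Tubb4a* at 11, *Tubb2b* at 12, *Tubb4b* at 13 and *Tubb3* at 18. Mismatches were counted against *Tubb5* only. The ends of *Tubb4a* and *Tubb4b* are much closer to each other than to *Tubb5*, as are those of *Tubb2a* and *Tubb2b*. The window therefore does not set every isotype apart.

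The first 30 coding bases are shown for the 3 α isotypes with a mean over 20 CPM, because these genes share much of their sequence. The capitals mark the first 4 codons, which encode the start of the nascent chain that TTC5 reads when excess tubulin triggers decay of its own mRNA.
*Tuba1a*, chr15:98953451-98953453 and chr15:98951665-98951691, minus strand: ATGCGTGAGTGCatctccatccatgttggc
*Tuba1b*, chr15:98934333-98934335 and chr15:98933169-98933195, minus strand: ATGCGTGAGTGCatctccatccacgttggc
*Tuba1c*, chr15:99030422-99030424 and chr15:99034094-99034120, plus strand: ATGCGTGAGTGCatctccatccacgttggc
An intron separates the first codon from the rest in all 3 genes, and *Tuba1b* and *Tuba1c* each differed from *Tuba1a* at 1 of the 30 bases. Over the same first 30 bases *Tubb3* differed from *Tubb5* at 2, and over the last 30 bases *Tuba1c* differed from *Tuba1a* at 7. Of all 100-base windows along the annotated transcripts, 65.1% of those of *Tuba1a*, 62.1% of those of *Tuba1b* and 46.0% of those of *Tuba1c* occurred letter for letter in another gene. The share was 36.9% for *Tubb2a*, 26.0% for *Tubb2b*, 21.0% for *Tubb4b* and 12.8% for *Stmn1*, whose copy is the pseudogene *Gm11223*. It was 0 for *Tubb3*, *Tubb4a*, *Tubb5*, *Tubb6*, *Mapre1* and *Mapre3*. The counting of reads that fit several genes is not given in the sources used here, so the levels of the first group are uncertain where such reads were split or dropped. *Tuba1a* and *Tuba1b* also share exon bases with *Gm49450* on the same strand, and *Tuba4a* shares 1379 exon bases with *Stk16* on the other strand.

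Counts were compared between 3 cko libraries and 2 ctrl libraries, because the ctrl 2 column equals the mean of ctrl 1 and ctrl 3, rounded up, in each of the 32493 genes and was counted in no n. Library totals ran from 17883796 to 23335736 counts, so that 3 counts, taken as the detection floor, correspond to 0.129 to 0.168 CPM, the counts of a gene scaled to a fixed library total. Levels are given in CPM after TMM scaling, which corrects for differences in library composition, and calls were made where the quasi-likelihood test of edgeR, adjusted by Benjamini-Hochberg over 16710 genes, gave p under 0.05. Among the 8 NSC markers, *Sox2*, *Nes*, *Vim* and *Fabp7* were high in both groups, with means of 504 to 2548 CPM in ctrl. The others were lower, with ctrl means of 122 CPM for *Msi1*, 71.0 for *Hes5*, 49.1 for *Pax6* and 20.6 for *Prom1*. Oligodendrocyte lineage and astrocyte genes were also present at high levels. Of the 12 neuron markers, *Map2* averaged 996 CPM and *Dcx* 124 CPM in ctrl, while *Stmn2* and *Nefl* averaged at most 1.37 CPM in either group. The marker lists for microglia, endothelium, mural cells and blood summed to at most 6.71 CPM in any library, with *Cx3cr1*, *Tmem119*, *Cdh5*, *Hba-a1* and *Hbb-bs* at 0.

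Of the 32 members, 28 passed the filter on low counts. The other 4 were the testis isotypes *Tuba3a* and *Tuba3b*, the platelet isotype *Tubb1* and the pseudogene *Tubb4b-ps2*, with at most 4 counts in any library. *Stmn1*, *Mapre1* and *Tubb5* were higher in cko NSCs, *Tubb4a* and *Mapre3* were lower, and 23 members were not called. The 5 calls are 17.9% of the tested members, beside 16.4% of all genes tested. By direction, 10.7% of the members were higher beside 7.86% of all genes, and 7.14% were lower beside 8.57%. The number of calls among the members was therefore near the background of this comparison. Under the threshold used by the study, a log2 fold change beyond 0.9 with an unadjusted p under 0.01, *Stmn1* alone was higher, against 2.39% of all genes, and *Tubb4a* alone was lower, against 4.17%. The median log2 fold change was 0.13 over the 28 members, of which 19 were positive, and -0.003 over all genes. The groups did not overlap in 17 members, which is 60.7% beside 49.7% of all genes. In 12 members all cko libraries were higher and in 5 all were lower, beside 25.4% and 24.3% of all genes.

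**Figure D1:**
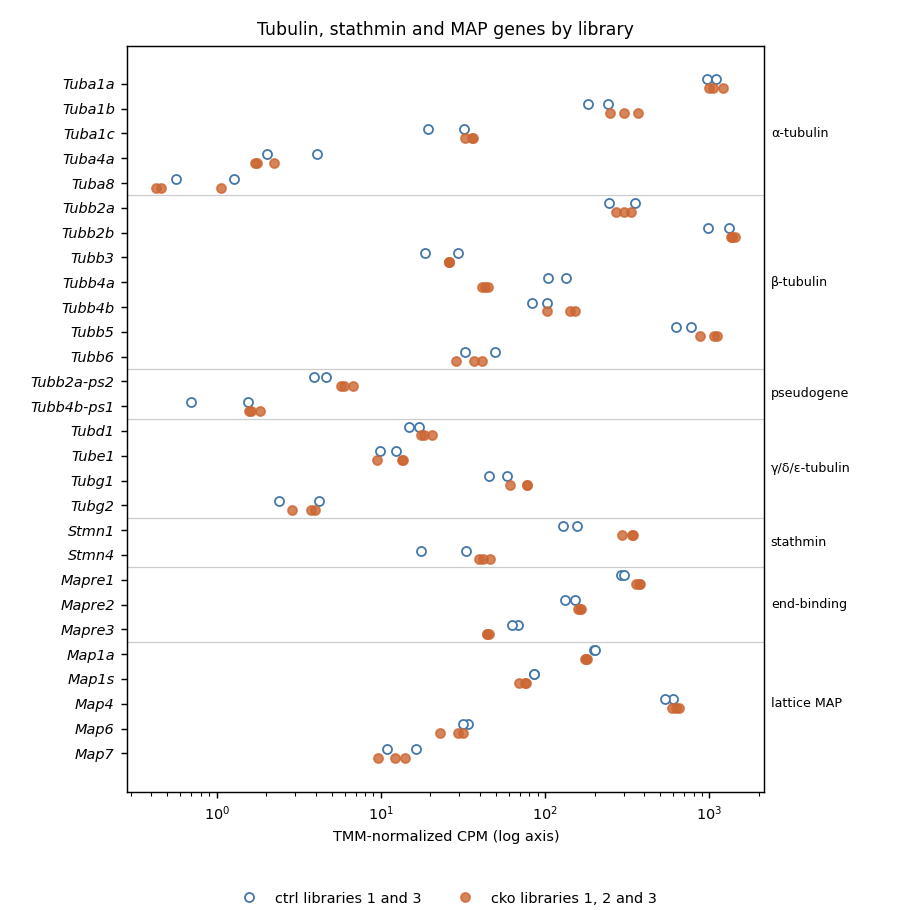
TMM-normalized CPM on a log axis for the 28 tested members, ordered by role, with open circles for ctrl libraries 1 and 3 and filled circles for cko libraries 1, 2 and 3. The cko circles of *Tubb4a* and *Mapre3* lie to the left of both ctrl circles, and those of *Stmn1*, *Mapre1* and *Tubb5* lie to the right.

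*Tubb4a* (ENSMUSG00000062591, chr17:57080066-57087782, minus strand) was the most strongly changed member. It stood at 134 and 103 CPM in ctrl 1 and ctrl 3 and at 41.1, 43.0 and 45.0 CPM in cko 1, 2 and 3. All 3 cko libraries were below both ctrl libraries, and they lay close together. The mean fell from 119 ± 21.7 (SD, n = 2) to 43.0 ± 1.96 CPM (SD, n = 3), a log2 fold change of -1.47 (SE 0.12, 95% interval -1.74 to -1.19, adjusted p = 0.00106 by edgeR). The ctrl level was thus 2.76 times the cko level. This call held in each of the 13 alternative fits, with log2 fold changes between -1.64 and -1.28. Some of these fits count the averaged ctrl 2 column as a library or keep only 1 ctrl library. All reuse the same libraries, so the 13 are not independent.

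Markers of the oligodendrocyte lineage also differed between cko and ctrl. Of the 11 genes on that list, 6 were lower in cko (*Sox10*, *Myrf* and *Mbp* among them), 2 were higher (*Olig1* and *Olig2*) and 3 were not called, with a median log2 fold change of -0.78. The summed level of the list was 3221 to 3842 CPM in ctrl and 3512 to 3765 CPM in cko, so the sums overlapped. *Mbp*, which encodes a myelin protein, averaged 189 CPM in ctrl and 10.5 CPM in cko. The order within groups differed between genes. *Tubb4a* was higher in ctrl 1 than in ctrl 3, as was *Myrf* (100 against 90.2 CPM). *Sox10* (162 against 190 CPM) and *Mbp* (139 against 238 CPM) were lower in ctrl 1. Within cko, *Tubb4a* was lowest in cko 1, where *Sox10* and *Myrf* were highest and *Mbp* was in between. In these bulk libraries, fewer cells of a type and less RNA per cell cannot be told apart. The part of oligodendrocyte lineage cells in the fall of *Tubb4a* was not tested.

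*Tubb5* (ENSMUSG00000001525, chr17:35833921-35838306, minus strand), a β isotype abundant in dividing cells, moved the other way. Its level was 626 and 768 CPM in ctrl 1 and ctrl 3 and 876, 1113 and 1060 CPM in cko 1, 2 and 3. The groups did not overlap, although cko 1 lay nearer to ctrl 3 than to the other cko libraries. The mean rose from 697 ± 100.3 (SD, n = 2) to 1017 ± 124 CPM (SD, n = 3), a log2 fold change of 0.54 (SE 0.13, 95% interval 0.23 to 0.86, adjusted p = 0.0334 by edgeR). Leaving out cko 2 or cko 3 raised the adjusted p to 0.148 and 0.14 by edgeR, and the call was lost. Without cko 1 it was kept (adjusted p = 0.0344 by edgeR), so the call depended on which cko library was left out. The number of all genes called higher also fell, from 1314 to 317 without cko 2 and 336 without cko 3. When each library was left out, the log2 fold change of *Tubb5* stayed between 0.39 (without ctrl 1) and 0.70 (without ctrl 3).

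**Figure D2:**
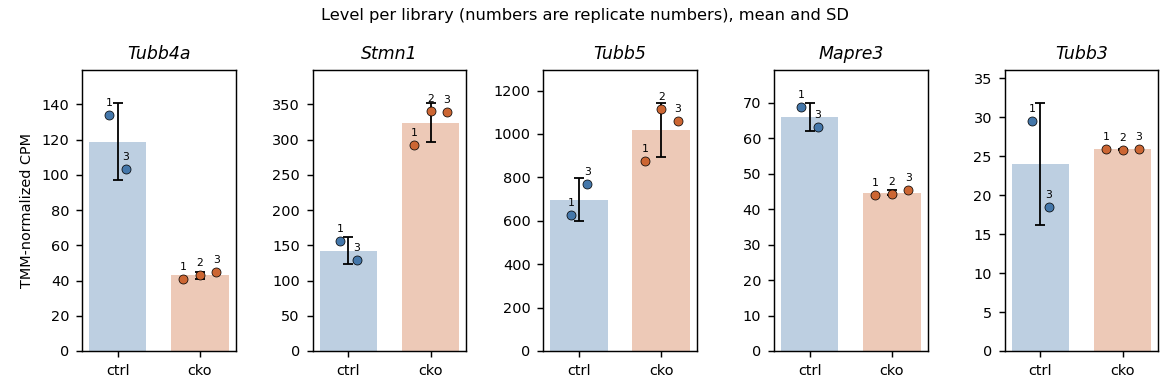
TMM-normalized CPM in each library for *Tubb4a*, *Stmn1*, *Tubb5*, *Mapre3* and the neuronal marker *Tubb3*, with bars for the group means, error bars for the SD and replicate numbers beside the points. *Tubb4a* and *Mapre3* were lower in all 3 cko libraries, *Stmn1* and *Tubb5* were higher, and the *Tubb3* values of cko lay between the 2 ctrl values.

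The other β isotypes were not called. *Tubb3* (ENSMUSG00000062380, chr8:123411424-123422015, plus strand), the isotype used to mark neurons, stood at 29.5 and 18.5 CPM in ctrl 1 and ctrl 3 and at 25.9, 25.8 and 26.0 CPM in cko 1, 2 and 3. The cko values lay between the 2 ctrl values and varied far less than these. The log2 fold change was 0.11 (95% interval -0.33 to 0.54, adjusted p = 0.733 by edgeR), an interval that holds both a fall and a rise. The direction depended on which ctrl library was kept, since *Tubb3* was at 0.48 against ctrl 3 alone and at -0.18 against ctrl 1 alone. A fit with 1 ctrl library does not measure the spread between controls, so only its log2 fold change is given. Among the 10 tested neuron markers, *Elavl4* and *Syt1* were higher, *Dcx* was lower and 7 were not called. The list summed to 1359 to 1430 CPM in ctrl and 1502 to 1557 CPM in cko. Most of each sum came from *Map2*, which was not called, at 959 to 1032 CPM in ctrl and 1084 to 1124 CPM in cko.

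*Tubb2b*, a major β isotype of the developing brain, stood at 983 and 1323 CPM in ctrl and at 1356, 1440 and 1375 CPM in cko. The groups did not overlap, by a narrow margin, and the log2 fold change of 0.27 was not called (95% interval -0.03 to 0.57, adjusted p = 0.189 by edgeR). It was 0.062 against ctrl 3 alone and 0.50 against ctrl 1 alone. Its close relative *Tubb2a* stood at 244 and 350 CPM in ctrl and at 269, 335 and 303 CPM in cko, all within the ctrl range (log2 fold change 0.03, 95% interval -0.35 to 0.40). *Tubb4b*, which is found in most cells and in cilia, was at 82.8 and 102.9 CPM in ctrl and at 102.6, 151 and 143 CPM in cko. Here cko 1 fell just under ctrl 3, and the log2 fold change of 0.51 had an adjusted p of 0.0892 in edgeR and 0.0440 in DESeq2. *Tubb6*, an isotype of low abundance in brain, was at 32.6 and 49.4 CPM in ctrl and at 28.5, 41.4 and 36.9 CPM in cko, with overlapping groups (log2 fold change -0.20, 95% interval -0.68 to 0.28).

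No α isotype was called. *Tuba1a*, the main α isotype of the developing brain, stood at 963 and 1089 CPM in ctrl and at 991, 1202 and 1057 CPM in cko, with overlapping groups (log2 fold change 0.08, 95% interval -0.17 to 0.33, adjusted p = 0.659 by edgeR). *Tuba1b*, a widely expressed α isotype, was at 181 and 241 CPM in ctrl and at 249, 365 and 302 CPM in cko. All 3 cko libraries were above both ctrl libraries, and the log2 fold change of 0.53 (SE 0.18, 95% interval 0.11 to 0.95) had an adjusted p of 0.0857 in edgeR and 0.0341 in DESeq2. *Tuba1c* was at 19.4 and 32.0 CPM in ctrl and at 36.5, 35.8 and 32.3 CPM in cko, where the groups were separated by the gap between 32.0 and 32.3 CPM (log2 fold change 0.44, adjusted p = 0.167 by edgeR). Against ctrl 3 alone its log2 fold change was 0.11, and against ctrl 1 alone it was 0.85. *Tuba1b* was likewise at 0.33 and at 0.76. *Tuba4a* and *Tuba8* were low, at 0.429 to 4.05 CPM in the 5 libraries, with overlapping groups and log2 fold changes of -0.67 and -0.52 whose intervals spanned 0.

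**Figure D3:**
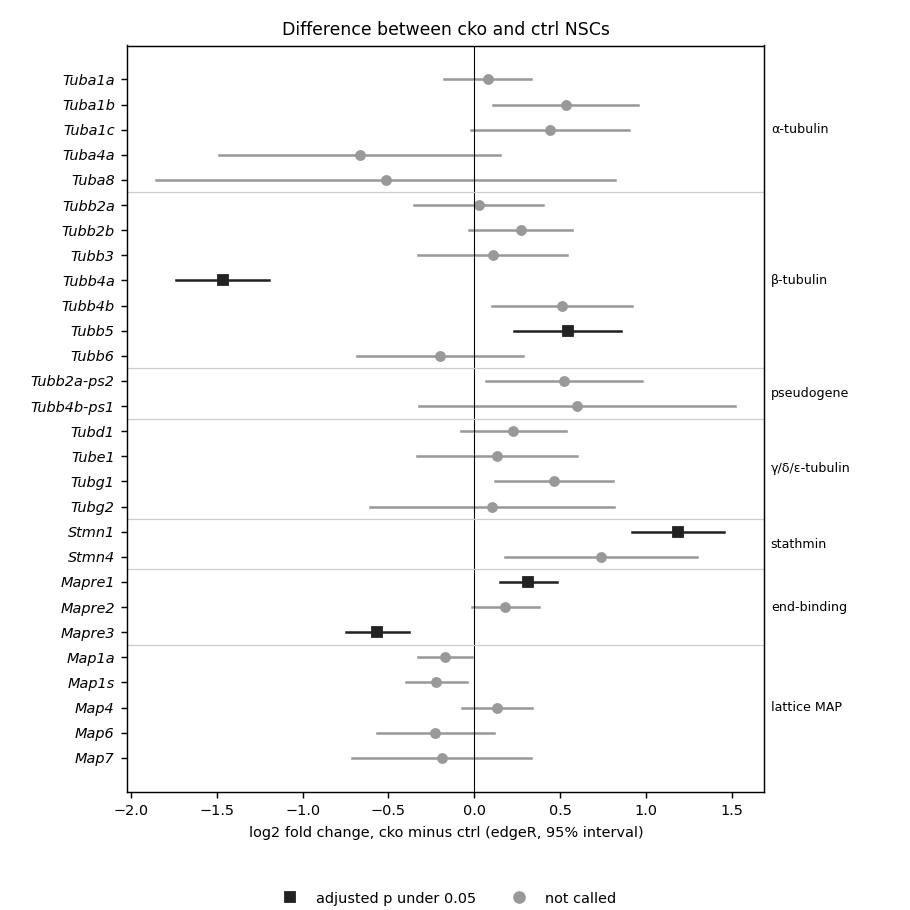
Log2 fold change of cko minus ctrl with its 95% interval for the 28 tested members, from edgeR, with black squares for the 5 members with an adjusted p under 0.05 and grey circles for the other 23. *Tubb4a* at -1.47 and *Stmn1* at 1.19 lie farthest from 0, and most intervals of the isotypes include small changes in both directions.

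Levels of different genes were set side by side only after division by exon length, as TMM-normalized CPM per kilobase. On that scale the ctrl means were 569 for *Tuba1a*, 503 for *Tubb2b*, 210 for *Tubb5*, 185 for *Tubb2a*, 113 for *Tuba1b*, 53.3 for *Tubb4a*, 44.5 for *Tubb4b*, 16.8 for *Tubb6*, 12.8 for *Tubb3* and 11.2 for *Tuba1c*. In cko the means were 601 for *Tuba1a*, 606 for *Tubb2b*, 306 for *Tubb5*, 188 for *Tubb2a*, 163 for *Tuba1b*, 63.3 for *Tubb4b* and 19.3 for *Tubb4a*. *Tuba1a* and *Tubb2b*, the leading isotypes of their families, lay within their spread of each other in both groups, as did *Tubb4a* and *Tubb4b* in ctrl. In cko, the mean of *Tubb4b* was above that of *Tubb4a* by more than the SD of either (12.4 and 0.880).

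The make-up of each family was then given as the share of an isotype in the length-scaled counts of its family, which does not depend on the scaling between libraries. *Tuba1a* made up 83.4% and 80.7% of α-tubulin in ctrl 1 and ctrl 3 and 78.6%, 75.9% and 76.9% in cko 1, 2 and 3, while *Tuba1b* made up 15.1% and 17.2% against 19.0%, 22.2% and 21.2%. Both shares were separated between the groups, and the difference was -4.92 percentage points for *Tuba1a* and 4.63 for *Tuba1b*. With 3 against 2 libraries, an exact two-sided permutation test gives p = 0.2 for each, which is the smallest value it can give and cannot reach the threshold. The shared sequence of these 2 genes bears on this split most directly.

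Among β isotypes, *Tubb5* made up 21.0% and 20.1% of β-tubulin in ctrl and 23.6%, 25.9% and 26.0% in cko, a difference of 4.67 percentage points. *Tubb4a* made up 6.71% and 4.04% against 1.65%, 1.49% and 1.65%, a difference of -3.77 points, and *Tubb2a* made up 16.9% and 18.9% against 15.0%, 16.1% and 15.4%, a difference of -2.41 points. Without ctrl 1 the *Tubb4a* difference was -2.44 points, and without ctrl 3 the *Tubb2a* difference was -1.41 points. The groups were separated for all 3, each again at the smallest exact permutation p of 0.2. So was the small *Tubb6* share, at 1.49% and 1.76% in ctrl and 1.05%, 1.31% and 1.24% in cko. Shares within a family add up to the whole, so these differences, like those of *Tuba1a* and *Tuba1b*, are not independent of each other. *Tubb2b* held 47.8% and 50.1% in ctrl and 53.0%, 48.5% and 49.0% in cko, and *Tubb3* held 1.76% and 0.859% against 1.24%, 1.07% and 1.14%, with overlapping groups in both cases. Summed over the 22 tubulin genes, the level was 3378 and 4179 CPM in ctrl and 4077, 4873 and 4507 CPM in cko, so total tubulin mRNA was not separated between the groups.

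**Figure D4:**
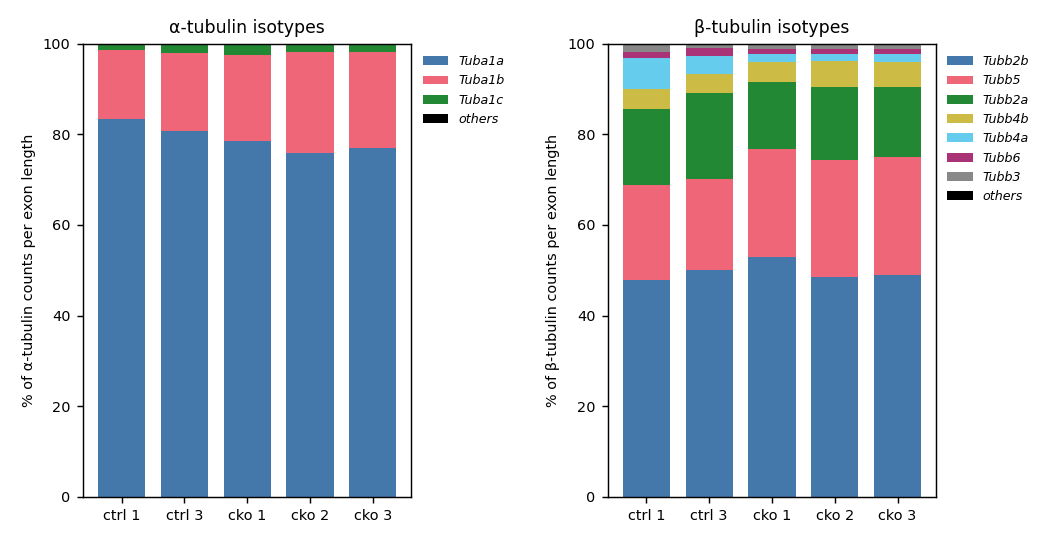
Stacked bars give, for each of the 5 libraries, the percentage of length-scaled α-tubulin counts (left) and β-tubulin counts (right) that each isotype took. *Tuba1a* ran from 83.4% in ctrl 1 to 75.9% in cko 2, and *Tubb4a* from 6.71% in ctrl 1 to 1.49% in cko 2.

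The 2 ctrl libraries differed from each other in the tubulin genes. In 10 of the 12 tested α and β isotypes the level was higher in ctrl 3 than in ctrl 1, as it was in 49.4% of all genes, and the exceptions were *Tubb3* and *Tubb4a*. Among the 10 stathmins, end-binding proteins and MAPs it was higher in ctrl 3 in 2. Of the 28 tested members, 9 differed by over 1.5 times between the ctrl libraries (32.1%, beside 20.2% of all genes), with *Tuba8*, *Tubb4b-ps1* and *Tuba4a* at 2.26, 2.21 and 2.02 times. Among the 3 cko libraries, *Tuba8* alone did so, which is 3.57% beside 20.9% of all genes.

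The γ-, δ- and ε-tubulins build and template microtubules at centrioles and centrosomes, and none of the 4 genes was called. *Tubg1*, the γ-tubulin of most cells, ran from 45.6 to 58.7 CPM in ctrl and from 60.8 to 77.9 CPM in cko, with no overlap and a log2 fold change of 0.47 (SE 0.15, adjusted p = 0.0723 by edgeR and 0.0417 by DESeq2). *Tubg2*, *Tubd1* and *Tube1* had log2 fold changes of 0.10, 0.23 and 0.13. The pseudogenes *Tubb2a-ps2* and *Tubb4b-ps1*, at 0.699 to 6.76 CPM, had log2 fold changes of 0.52 and 0.60 with adjusted p of 0.111 and 0.335 in edgeR. Of the 100-base windows of *Tubb4b-ps1*, 38.8% occurred in another gene, *Tubb4b* among them.

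*Stmn1* (ENSMUSG00000028832, chr4:134468320-134473843, plus strand) encodes stathmin, which holds tubulin dimers out of the polymer and is abundant in dividing cells. It stood at 156 and 129 CPM in ctrl 1 and ctrl 3 and at 293, 341 and 339 CPM in cko 1, 2 and 3. All 3 cko libraries were well above both ctrl libraries. The mean rose from 142 ± 19.2 (SD, n = 2) to 324 ± 27.3 CPM (SD, n = 3), a log2 fold change of 1.19 (SE 0.11, 95% interval 0.92 to 1.46, adjusted p = 0.00184 by edgeR), or 2.28 times the ctrl level. It was called in each of the 13 alternative fits, which are not independent, with log2 fold changes between 1.06 and 1.32. *Stmn4*, a stathmin of the nervous system, was at 33.2 and 17.5 CPM in ctrl and at 46.3, 39.5 and 41.8 CPM in cko, and its log2 fold change of 0.74 was not called (95% interval 0.18 to 1.30, adjusted p = 0.0758 by edgeR, 0.0186 by DESeq2). Against ctrl 3 alone it was at 1.27, and against ctrl 1 alone it was at 0.36.

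Proliferation markers moved beside *Stmn1* and *Tubb5*. Of the 12 on the list, 11 were higher in cko and 1 was not called, with a median log2 fold change of 1.14, and their summed level was 1048 to 1222 CPM in ctrl and 2140 to 2837 CPM in cko. Within cko, library 1 had the lowest sum and the lowest *Stmn1* and *Tubb5*. Within ctrl, the sum and *Tubb5* were lower in ctrl 1 than in ctrl 3 (1048 against 1222 CPM and 626 against 768 CPM). *Stmn1* was higher in ctrl 1, at 156 against 129 CPM. *Mki67*, a protein of cycling cells, averaged 261 ± 11.0 CPM in ctrl (SD, n = 2) and 642 ± 90.3 CPM in cko (SD, n = 3). The part of the share of cycling cells in the rise of these 2 members was not tested.

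The 3 end-binding proteins went in different directions. *Mapre1* (ENSMUSG00000027479, chr2:153741274-153773310, plus strand), which encodes EB1, the general plus-end tracker, was at 290 and 303 CPM in ctrl and at 358, 371 and 376 CPM in cko. The groups did not overlap, and the rise was small beside that of *Stmn1*, with a log2 fold change of 0.32 (SE 0.07, 95% interval 0.15 to 0.48, adjusted p = 0.0267 by edgeR). Leaving out cko 1, cko 2 or cko 3 raised the adjusted p to 0.0574, 0.144 and 0.145, and a block for the replicate number raised it to 0.124, with the log2 fold change between 0.27 and 0.35 in every alternative. *Mapre3* (ENSMUSG00000029166, chr5:30814641-30866106, plus strand), which encodes EB3, the form prominent in neurons, was at 68.6 and 63.1 CPM in ctrl and at 44.0, 44.3 and 45.4 CPM in cko. All 3 cko libraries were below both ctrl libraries. *Mapre3* fell by 0.56 on the log2 scale (SE 0.08, 95% interval -0.75 to -0.38, adjusted p = 0.00495 by edgeR), to 0.676 times the ctrl level. It stayed called in each of the 13 alternative fits, which are not independent. *Mapre2*, the third member of the family, ran from 133 to 153 CPM in ctrl and from 159 to 164 CPM in cko, with no overlap and no call (log2 fold change 0.18, adjusted p = 0.179 by edgeR).

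None of the 5 lattice-binding MAPs was called. *Map4*, the main MAP of dividing cells, ran from 534 to 600 CPM in ctrl and from 590 to 648 CPM in cko, with overlapping groups (log2 fold change 0.13, 95% interval -0.07 to 0.34). *Map1a* and *Map1s*, relatives of *Map1b*, were lower in all cko libraries than in both ctrl libraries, with log2 fold changes of -0.17 and -0.22 and adjusted p of 0.129 and 0.0936 in edgeR. *Map6*, which stabilises microtubules against cold, and *Map7*, which recruits kinesin, had log2 fold changes of -0.23 and -0.19 with intervals that spanned 0.

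Outside the members, 101 genes on 6 lists of microtubule functions were read from the same fit, of which 96 were tested. Of these, 20 were higher and 8 lower in cko, which is 20.8% and 8.33% beside 7.86% and 8.57% of all genes, with a median log2 fold change of 0.10. The lists were chosen for function with earlier results of these data known, and no test of the lists was run. Counts on each list below, and on the marker lists, stand beside the same 7.86% of all genes higher and 8.57% lower.

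Genes that fold and supply tubulin were mostly not called. On that list of 21 genes, 3 were higher and none lower, namely the tubulin cofactors *Tbca* (0.42 on the log2 scale) and *Tbcd* (0.28) and the prefoldin subunit *Vbp1* (0.33). No subunit of the CCT chaperonin was called. *Ttc5*, the reader of the first codons shown above, was at 75.7 and 64.7 CPM in ctrl and at 64.0, 61.1 and 62.8 CPM in cko, with a log2 fold change of -0.17 that was not called (adjusted p = 0.243 by edgeR).

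The γ-tubulin ring complex and augmin nucleate and branch spindle microtubules. On that list, 7 of 17 genes were higher (41.2%, beside 7.86% of all genes) and none lower. *Nedd1*, which targets the ring complex to the centrosome, was at 0.54 on the log2 scale, and the augmin subunits *Haus4* and *Haus8* were at 0.92 and 0.71. The severing enzymes had 2 of 9 higher (22.2%), *Katnal2* at 0.93 and *Fignl1* at 1.04, and none lower.

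Other lattice-binding proteins and stathmins had 3 higher and 3 lower of 16 tested. *Stmn3*, a neural stathmin, rose from 46.4 and 41.2 CPM in ctrl to 91.4, 98.0 and 100.1 CPM in cko (log2 fold change 1.14, adjusted p = 0.00106 by edgeR), beside *Mapt* (0.64), which encodes tau, and *Map7d2* (0.49). *Map1b* fell from 352 and 274 CPM to 81.7, 85.5 and 92.9 CPM (log2 fold change -1.85, adjusted p = 0.000490 by edgeR), beside *Dcx* (-1.51), the doublecortin of young neurons, and *Camsap2* (-0.47), which guards minus ends.

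Plus-end proteins other than the members had 1 higher and 2 lower of 12, with *Tacc3*, a spindle protein, at 0.94 and *Clip1* and *Clip4* at -0.37 and -0.51. Tubulin-modifying enzymes had 4 higher and 3 lower of 21. The polyglutamylases *Ttll7* and *Ttll1*, which extend the C-terminal tails, were at 0.87 and 0.52, and the tubulin carboxypeptidase *Vash2* at 0.76. The deacetylase *Sirt2*, which acts on α-tubulin and is abundant in oligodendrocytes, fell from 508 and 556 CPM in ctrl to 254, 207 and 215 CPM in cko (log2 fold change -1.24, adjusted p = 0.00109 by edgeR). The carboxypeptidases *Agbl5* and *Agbl2* were at -0.43 and -2.11, the latter at no more than 2.35 CPM.

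**Figure D5:**
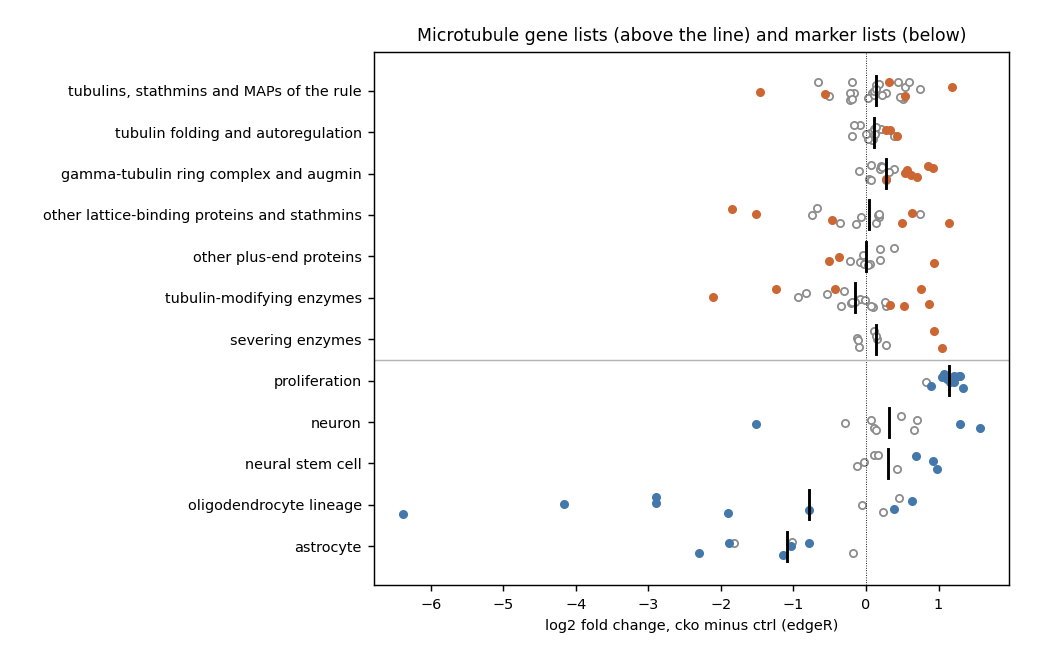
Log2 fold change of cko minus ctrl (edgeR) for each tested gene of the members, the 6 other microtubule lists and 5 marker lists, with filled circles for an adjusted p under 0.05, open circles for genes not called and a bar at each median. The members centre on 0.13, proliferation genes on 1.14, oligodendrocyte lineage genes on -0.78 and astrocyte genes on -1.09.

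Astrocyte markers also moved between the groups, with 5 of 8 lower in cko, none higher and a summed level of 3899 to 4703 CPM in ctrl against 1802 to 2711 CPM in cko. Of the 8 NSC markers, 3 were higher (*Hes5*, *Nes* and *Prom1*), and the list summed to 5177 to 6390 CPM in ctrl and 7313 to 7784 CPM in cko. None of the 6 tested genes of multiciliated ependymal cells was called. The part of these cell types in the changes of the 5 called members was not tested.

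Promoters were read from RefSeq on GRCm38.p6 as the 250 bases before to 50 after each start. These matched 22 of the 32 members with 24 promoters, among 32851 promoters in all. The motifs were searched on both strands, and matches that overlap those of another motif were kept. The cell cycle element CHR (TTTGAA) was found for *Map7*, *Tuba3b* and *Tubb4b*, in 3 of 24 promoters, beside 17.9% of all promoters. The E2F forms TTTCCCGC, TTTGGCGC, TTTCGCGC and TTTGCCGC were found in 0 of the 24, beside 2.26% of all. CCAAT was found in 13 of the 24, belonging to 12 genes, beside 37.4% of all. Of the 5 called members, *Tubb5* and *Mapre1* hold it, *Tubb4a* and *Mapre3* do not, and no promoter was matched for *Stmn1*. The windows of *Tubb5* and *Mapre1* are shown 5′ to 3′ on the strand of the gene, with CCAAT or its complement ATTGG in capitals.
*Tubb5*, chr17:35838482-35838511, minus strand: cacaagataaccCCAATtcctcatacagta
*Tubb5*, chr17:35838374-35838403, minus strand: ctggctcagaaaCCAATggccgcctggcac
*Mapre1*, chr2:153741134-153741163, plus strand: gactcacacgtcATTGGtcgcaactgacca
Counted from the annotated start, the motif begins at -198 and -90 in *Tubb5* and at -141 in *Mapre1*. *Tubb3*, *Tuba1a*, *Tuba1c*, *Tubb4b*, *Tube1*, *Map1a* and *Map4*, which were not called, hold it as well, as do the untested *Tuba3a*, *Tuba3b* and *Tubb1*.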

How the data were processed

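RNA was sequenced from E14.5 NSC cultures. The authors deposited raw counts per gene in 6 columns, aligned to mm10 with HISAT2 according to the study, whereas the labels name GRCm39. The counting tool, annotation and strand setting are not given in the sources used here. The labels name a column kit for RNA and the study TRIzol. In the deposited table, the ctrl 2 column is the rounded-up mean of ctrl 1 and ctrl 3, was treated as a score and entered only the 6-column alternatives.

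GENCODE M21 named 31829 of 32493 gene IDs, and the other 664 held 0.223% to 0.342% of a library's counts. Counts of the 5 libraries were tested in R 4.3.3 with edgeR 4.0.16, using TMM, its filter on low counts with genotype as group, no covariate, and its quasi-likelihood test, with Benjamini-Hochberg adjustment over 16710 genes. Shares were tested by exact permutation in scipy 1.17.1. Library totals of 17883796 to 23335736 counts set the precision, and intervals of single genes come from the fit. Steps were tested on simulated data. Figures were drawn with matplotlib 3.10.9.

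Other settings tried were size factors by median of ratios, DESeq2 1.42.0, a filter of at least 10 counts per library and none at all, the replicate block, the 6-column fits, leaving out each library, the threshold of the study and shares without length scaling. Members, lists and tests were chosen with earlier results of these data known. Values in every library are given for members with an adjusted p under 0.05, for *Tubb3* and for α and β isotypes with a mean over 20 CPM, and from each other list at most 3 called genes in each direction are named, those with the smallest p. Values given in every library for *Ttc5*, *Stmn4*, *Stmn3*, *Map1b* and *Sirt2*, and the marker genes named, were chosen after their values were seen. Protein sequences were not used here. Some values of single marker genes are not reported here.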

Additional observations from a re-analysis of the deposited data

How the results depend on the processing

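*Tubb4a*, *Stmn1* and *Mapre3* were called in all 13 alternative fits, and *Tubb5* and *Mapre1* kept their direction in all of them. These fits reuse the same libraries, and the 6-column fits count the averaged ctrl 2 column, so the 13 are not independent. Of the 23 members not called, 11 were called by no alternative. Beside 3 members higher and 2 lower, DESeq2 called 7 higher, no filter 9, the 6-column fits 9 in edgeR, 10 in DESeq2 and 8 with the replicate block, and the threshold of the study 1. The members lower in cko numbered 4 in the 6-column fits of edgeR and of DESeq2 and 1 at the threshold of the study. Leaving out each library gave 1 to 8 members higher, lowest without cko 2 or cko 3 and highest without ctrl 3, and 2 to 3 lower. A fit without 1 ctrl library assumes that the lone ctrl library varies like the cko libraries.

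Over all genes, 1314 were higher and 1432 lower. The 6-column fits gave 2865 and 2794 in edgeR, 2593 and 2630 in DESeq2, and 2675 and 2673 with the replicate block. No filter gave 2237 lower, the threshold of the study 399 and 696, and leaving out each library 317 to 1812 higher and 416 to 2062 lower, both lowest without cko 2. Among the 96 other microtubule genes, 20 were higher and 8 lower. The 5-library replicate block gave 12 higher, the 6-column edgeR fit 32, the 6-column block 13 lower, the threshold of the study 5 and 4, and leaving out each library 4 to 20 higher and 3 to 10 lower, lowest without cko 2 or cko 3.

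The replicate numbers are shared by ctrl 1 and cko 1 and by ctrl 3 and cko 3, whose deviations correlated at 0.20 and 0.057. With only 2 such pairs the numbers were not taken to pair the samples. With the replicate block, the members called were *Stmn1* (1.15), *Stmn4* (0.86), *Tubb5* (0.48), *Tubg1* (0.41), *Mapre3* (-0.56) and *Tubb4a* (-1.45), and *Mapre1* was lost (adjusted p = 0.124 by edgeR). Log2 fold changes turned for *Tuba1a* (-0.0012) and *Tubb2a* (-0.035) with the block. When each library was left out, the log2 fold change turned without ctrl 1 for *Tuba1a* (-0.018 to 0.17), *Tubb2a* (-0.22 to 0.31), *Tube1* (-0.023 to 0.30), *Tubg2* (-0.26 to 0.56) and *Map7* (-0.44 to 0.13), also without cko 2 for the first pair, and without ctrl 3 for *Tuba8* (-1.04 to 0.16), *Tubb3* (-0.18 to 0.48) and *Tubb6* (-0.48 to 0.14). The cause was not tested. None of these members was called in the comparison of 5 libraries.

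The shares of *Tuba1a*, *Tuba1b*, *Tuba1c*, *Tubb2a*, *Tubb4a*, *Tubb4b*, *Tubb5* and *Tubb6* kept their direction in all 6 alternatives, while without ctrl 1 the difference was 0.102 points for *Tuba1c* and -2.44 for *Tubb4a*, and without ctrl 3 it was 0.645 for *Tuba1c* and -1.41 for *Tubb2a*. The difference in the *Tubb2b* share turned to -0.0888 percentage points without length scaling and ran from -0.166 (without cko 1) to 2.43 points when each library was left out, and that in the *Tubb3* share ran from -0.610 to 0.290 (without ctrl 1). With 2 ctrl libraries, differences within the spread between them were not detectable, and isotypes that share sequence depend on a counting step that is not given in the sources used here.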
